A study of Mus musculus with 12 samples.

Results

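The respiratory chain and ATP synthase genes were followed in RNA from whole mouse pancreas. Members were the protein-coding genes whose symbols start with mt-Nd, mt-Co, mt-Cytb or mt-Atp (mitochondrial class), or with Nduf, Uqcr, Cox4 to Cox8 or Atp5, together with Sdha to Sdhd (nuclear class), leaving out pseudogenes. The rule found 106 members among the 49585 genes counted, 13 encoded in the mitochondrial genome and 93 in the nucleus. By symbol the nuclear class held 46 members of complex I, 8 of them Ndufaf assembly factors, 4 of complex II, 8 of complex III, 18 of complex IV and 17 of complex V. Ndufa4 is counted with complex I by its symbol, although its protein is now placed in complex IV.

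The study crossed a cerulein treatment with an Atf3 genotype. The groups were wild-type (WT) C57Bl6 mice given cerulein (libraries O1, O3 and N3), WT mice given saline (W1, K5 and R3), mice of a congenic Atf3-/- line given cerulein (C2, C3 and L4) and mice of that line given saline (S1, K4 and Q1). All mice were 2 to 4 months old and received 4 injections, at 50 ug/kg where cerulein was given, and the pancreas was taken at 4 h. Cerulein is an analogue of cholecystokinin that overstimulates acinar cells and is used to start experimental pancreatitis.

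The respiratory chain passes electrons from NADH (complex I) and succinate (complex II) through coenzyme Q, complex III, cytochrome c and complex IV to oxygen, and complex V uses the proton gradient so formed to make ATP. Complex II is built from nuclear genes alone, whereas the other complexes combine nuclear subunits with subunits made inside the mitochondrion from long polycistronic transcripts. Acinar cells spend much ATP on making and secreting digestive enzymes.

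The nuclear genome carries copies of some mitochondrial members. How the counting treated reads that fit more than 1 place is not given in the sources used here, and the part of the copies in the levels below was not tested. A block of unprocessed pseudogenes on chromosome 1 of GRCm38 (24611535 to 24616197, minus strand) matched mt-Co2, mt-Atp6, mt-Co3, mt-Nd3 and mt-Nd4l over at least 98.3% of their length with no mismatch. The starts of mt-Co2 (chrM:7013-7062, plus strand) and mt-Co3 (chrM:8607-8656, plus strand) are printed above their copies Gm28661 (chr1:24615516-24615565, minus strand) and Gm28437 (chr1:24613922-24613971, minus strand), read 5′ to 3′ from GENCODE M21 transcripts, because a read from such a stretch fits both places.
mt-Co2: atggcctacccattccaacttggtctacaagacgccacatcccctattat
Gm28661: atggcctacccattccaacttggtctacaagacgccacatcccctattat
mt-Co3: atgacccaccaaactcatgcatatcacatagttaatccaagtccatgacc
Gm28437: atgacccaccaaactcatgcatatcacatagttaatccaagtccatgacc
The members of each pair are identical over these 50 bases. Of all 50-base stretches of the 5 genes, 98.0% to 100% occurred in other annotated transcripts, against 62.2% in mt-Nd4, 51.1% in mt-Co1, at most 8.19% in mt-Nd2 and mt-Nd5, and 0% in mt-Nd1, mt-Cytb, mt-Nd6 and mt-Atp8.

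The nuclear members are read from promoters of their own. RefSeq promoter windows (GRCm38.p6, from 250 bases before to 50 after a gene's start) were found for 74 of the 93 nuclear members, in 79 windows. Windows of 3 complex I subunits that were lower after cerulein are shown, from Ndufs7 (chr10:80249199-80249498, plus strand), Ndufb10 (chr17:24724374-24724673, minus strand) and Ndufa8 (chr2:36049289-36049588, minus strand), 5′ to 3′, with the only match to the motifs searched in capitals.
Ndufs7: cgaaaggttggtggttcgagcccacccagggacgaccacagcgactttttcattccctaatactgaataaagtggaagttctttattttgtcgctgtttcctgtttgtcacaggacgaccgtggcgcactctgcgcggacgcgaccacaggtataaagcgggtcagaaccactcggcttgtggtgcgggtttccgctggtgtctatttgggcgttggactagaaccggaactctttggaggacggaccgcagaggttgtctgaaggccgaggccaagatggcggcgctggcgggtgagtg
Ndufb10: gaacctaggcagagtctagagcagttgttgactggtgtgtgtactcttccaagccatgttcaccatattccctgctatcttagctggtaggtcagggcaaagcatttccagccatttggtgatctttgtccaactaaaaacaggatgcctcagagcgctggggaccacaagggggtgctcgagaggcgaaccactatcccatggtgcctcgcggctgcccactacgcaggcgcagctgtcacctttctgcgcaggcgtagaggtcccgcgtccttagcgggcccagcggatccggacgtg
Ndufa8: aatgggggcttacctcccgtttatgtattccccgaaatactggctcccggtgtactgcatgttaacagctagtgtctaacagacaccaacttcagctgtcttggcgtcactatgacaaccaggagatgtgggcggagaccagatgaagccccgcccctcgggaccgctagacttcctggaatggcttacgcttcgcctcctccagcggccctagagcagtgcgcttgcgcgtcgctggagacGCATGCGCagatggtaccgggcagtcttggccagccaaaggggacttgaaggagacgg
The capitals in the Ndufa8 window are the letters GCATGCGC, the core bound by NRF1, a regulator of respiratory chain genes. On either strand this core stood in 12 of the 79 member windows (15.2%) and in 748 of 21263 windows of protein-coding genes (3.52%). The ETS letters CCGGAAGT, bound by GABPA, stood in 6.33% of member windows against 5.15% of all windows. The half-site AAGGTCA, bound by oestrogen-related receptors, stood in 10.1% against 4.08%, and the cyclic AMP response element TGACGTCA in 5.06% against 2.23%. The 11 windows of nuclear members lower after cerulein in WT are not 1 per gene, as Ndufa7 has overlapping windows and Ndufa2 has none. Of these 11 windows, 1 held the NRF1 core and 1, that of Ndufb4, held AAGGTCA. A match describes letters in a window and no binding was measured.

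The libraries held 18292997 to 32158629 counts each, of which the members took 0.730% to 1.01%. Atf3, the gene removed in the congenic line, was not lower where that genotype was labelled. It stood at 1375 and 1636 CPM (counts scaled to a common library size with TMM factors) in C2 and L4 and at 20.7 CPM in C3, against 7.44 to 23.1 CPM in the saline libraries of the line. In WT it stood at 394 to 775 CPM after cerulein and at 1.13 to 5.28 CPM after saline. The genotype is therefore called labelled Atf3-/- here. C3, labelled as cerulein-treated, lay with the saline libraries in Atf3 and in most measures below, so results are given with and without it.

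Markers of the cell types in the tissue differed between the groups. Calls in this paragraph compare cerulein with saline in WT over 12 libraries, by the edgeR test described below. That test called 12.8% of all genes lower and 17.9% higher. Of 12 acinar genes 6 were lower and none higher, and their summed level was 287151 to 356506 CPM in WT cerulein libraries, against 436217 to 511032 CPM in WT saline libraries. Of 8 duct genes 5 were higher and 1 lower, with sums of 389 to 642 CPM after cerulein and 211 to 288 CPM after saline in WT. Islet genes summed to 12329 CPM in L4, against 484 to 3787 CPM in the other libraries. Adipocyte genes summed to 504 CPM in N3 and 703 CPM in K4, against 37.6 to 230 CPM elsewhere. N3 also stood highest of the 12 libraries in lymphocyte (566 CPM), neutrophil (111 CPM) and macrophage (237 CPM) sums, against 8.04 to 37.1, 13.9 to 20.4 and 104 to 119 CPM in O1 and O3. The saline library K4 was also high in these sums, at 279, 83.5 and 209 CPM, and W1 had 309 CPM of lymphocyte genes. Of 7 endothelial genes 2 were lower in WT, Egfl7 (log2 fold change -0.74, edgeR adjusted p 0.018) and Kdr (-0.65, 0.041), and none was higher. Striated muscle genes summed to at most 2.42 CPM in any library, with Myh2, Myh4 and Myh7 at 0 in all libraries. The part of these differences in the results below was not tested, and in bulk tissue fewer cells of a type and less RNA per cell cannot be told apart.

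Level per length separated the mitochondrial members into 6 well counted genes and 7 scarce ones. Averaged over the 12 libraries, mt-Co1 stood at 1553 CPM per kb of exon, mt-Cytb at 1478, mt-Nd1 at 794, mt-Nd2 at 625, mt-Nd4 at 417 and mt-Nd5 at 362. These 6 held 99.5% to 99.8% of the mitochondrial sum in every library. The 5 genes with near-complete copies on chromosome 1 reached 0.851 (mt-Nd4l) to 8.14 (mt-Co2) CPM per kb. mt-Nd6, the member encoded on the light strand, stood at 7.30 CPM per kb, and the short mt-Atp8 at 3.44.

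**Figure D1:**
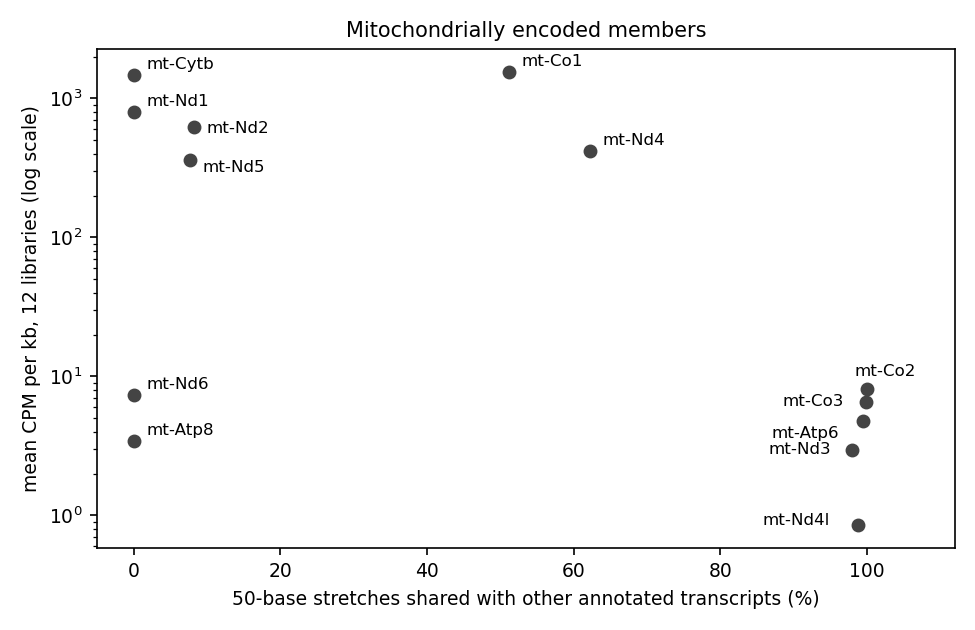
Mean level per length (CPM per kb, log scale, 12 libraries) of the 13 mitochondrially encoded members against the share of their 50-base stretches that other annotated transcripts hold (%). The 5 genes at 98.0% or more lie below 10 CPM per kb, and so do mt-Nd6 and mt-Atp8, which share none.

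Counts of the copies were of the same order as those of the scarce members. Over the 12 libraries mt-Co2 had 1526 counts and its copy Gm28661 had 1467, mt-Co3 had 1314 and Gm28437 had 1540, and mt-Atp6 had 898 and Gm10925 had 1954. By contrast mt-Co1 had 669802 counts and its partial copy Gm29216 had 1562.

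Among the nuclear members the most abundant subunit per length was Ndufa1, a small membrane-arm subunit of complex I, at 66.1 CPM per kb. Atp5b, the catalytic beta subunit of ATP synthase, followed at 64.5 CPM per kb. The length is that of all annotated exons of a gene joined, 419 bases for Ndufa1 and 4237 for Atp5b. It can exceed the length of the expressed mRNA, so the order depends on the annotation. The leading members of the other complexes were Cox6a1, the widely expressed form of a cytochrome oxidase subunit, at 56.6 CPM per kb, Uqcrh, the hinge protein of complex III, at 52.4, and Sdhb, the iron-sulfur subunit of succinate dehydrogenase, at 16.2.

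The tissue-restricted isoforms were nearly silent. Cox4i2, Cox6b2, Cox7a1, Cox7b2, Cox8b and Cox8c, forms of cytochrome oxidase subunits known from lung, testis, heart and muscle, had 0 to 8 counts in each library and did not enter the test. Cox8c had 1 count in all, in L4. Cox6a2, the heart and muscle form, had 12, 26 and 1 counts in C2, L4 and C3, against 2 to 4 counts in the saline libraries of the same line, and 13, 2 and 5 counts in O1, O3 and N3, against 2, 10 and 5 in W1, K5 and R3. Ndufa4l2, a hypoxia-responsive relative of Ndufa4, had 4 to 31 counts per library with overlapping groups.

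The first comparison asked which members responded to cerulein in WT pancreas. A gene was called when its adjusted p from edgeR's quasi-likelihood test, adjusted by Benjamini-Hochberg across the 14329 genes in the fit, was under 0.05. In WT 12.8% of all genes were called lower and 17.9% higher. Of the 12 mitochondrial members tested 1 was lower and none higher, and of the 87 nuclear members tested 11 were lower (12.6%) and 1 was higher. The share of nuclear members called lower was thus near that of all genes. The called members were not spread over the complexes. All 11 that fell were complex I subunits, 11 of the 46 complex I members (23.9%), while none of the 41 tested members of complexes II to V was called. The median log2 fold change was -0.54 in the mitochondrial class and -0.40 in the nuclear class, against 0.05 over all genes. At an unadjusted p under 0.05 edgeR had 7 of the 12 mitochondrial members (58.3%) and 32 of the 87 nuclear members (36.8%), 1 in complex III and 0 in complex IV, beside 43.1% of all genes.

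Without C3 the same comparison called more genes, and the biological coefficient of variation was 0.304, against 0.357 with C3. Then 16.6% of 14733 genes were lower and 21.3% higher in WT. Of the 12 tested mitochondrial members 8 were lower (66.7%), and of the 87 nuclear members 27 were lower (31.0%) and 1 higher. The 8 include the scarce mt-Co2, mt-Atp6 and mt-Co3, of whose 50-base stretches 99.5% to 100% occur in other annotated transcripts. The fall again centred on complex I, with 23 of 46 members lower (50.0%), beside 2 of 4 in complex II, 2 of 17 in complex V and none of the 8 and 12 in complexes III and IV. The medians stayed at -0.54 and -0.40.

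**Figure D2:**
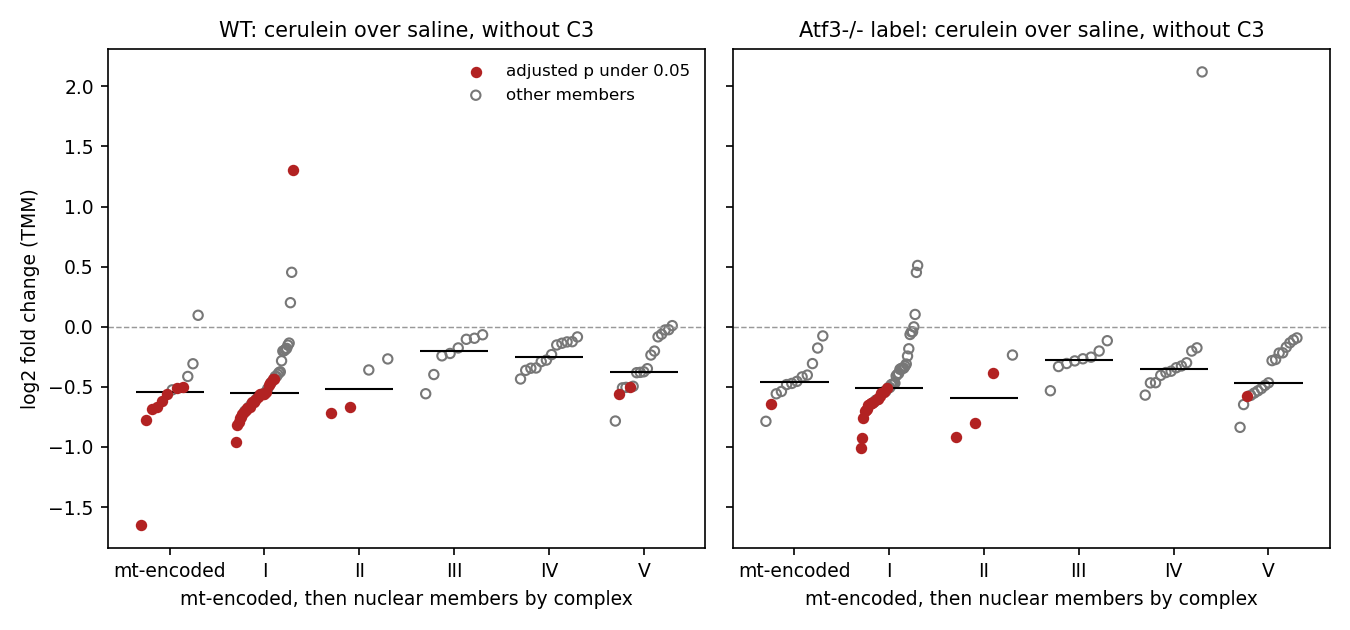
Log2 fold change of cerulein over saline (TMM scaling, fit without C3) for each tested member, in WT (left) and in labelled Atf3-/- (right), the mitochondrially encoded members first and the nuclear members by complex. Filled points have an adjusted p under 0.05 and horizontal lines are medians. In WT 23 complex I members lie below 0 as filled points and none of complexes III and IV do.

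Of the 12 tested mitochondrially encoded members 11 had a log2 fold change below 0 in WT, and mt-Nd3 had 0.09. mt-Co1, the core of cytochrome oxidase, stood at 1890, 1614 and 2256 CPM in WT cerulein libraries, against 2727, 2844 and 2629 CPM in WT saline libraries. The groups did not overlap, and the log2 fold change was -0.51 (SE 0.21), with an adjusted p of 0.091 over 12 libraries and 0.036 without C3 (edgeR). mt-Cytb, the catalytic core of complex III, stood at 1384, 1222 and 1350 CPM against 2252, 1843 and 1751 CPM, a log2 fold change of -0.56 (SE 0.23, edgeR adjusted p 0.080, and 0.026 without C3). Every WT cerulein library lay below every WT saline library for 10 of the 12 tested members, beside 24.9% of all genes, and mt-Nd3 and mt-Atp8 overlapped.

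The complex I members of the mitochondrial genome, which form the proton-pumping membrane arm, followed. The log2 fold change was -0.62 (SE 0.26) for mt-Nd1, -0.31 (SE 0.25) for mt-Nd2, -0.66 (SE 0.27) for mt-Nd4 and -0.50 (SE 0.23) for mt-Nd5. Without C3 mt-Nd1, mt-Nd4 and mt-Nd5 were called (edgeR adjusted p 0.040, 0.016 and 0.049), and mt-Nd2 was not (0.28). mt-Nd6 had -0.53 (SE 0.37), mt-Nd3 0.09 (SE 0.78) and mt-Atp8 -0.42 (SE 0.56), none of them called with or without C3. mt-Co2 and mt-Atp6 had -0.69 (SE 0.26) and -0.78 (SE 0.29), called only without C3 (edgeR adjusted p 0.019 and 0.024), at 2.37 to 4.70 CPM after cerulein and 3.47 to 7.44 CPM after saline in WT.

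mt-Co3 was the single call over 12 libraries. Its counts were 86, 74 and 76 in WT cerulein libraries, against 324, 80 and 121 in WT saline libraries, so that W1 alone stood apart. The log2 fold change was -1.65 (SE 0.55, edgeR adjusted p 0.042). The call was lost when any 1 of 8 libraries was left out (W1, O1, O3, N3, S1, Q1, C2 or L4), with adjusted p values of up to 0.258.

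The nuclear members called lower were complex I subunits. Ndufs7 (GRCm38 chromosome 10, 80249121 to 80256794), a core subunit that holds the last iron-sulfur cluster before coenzyme Q, stood at 13.0, 14.7 and 10.6 CPM in WT cerulein libraries, against 25.5, 24.2 and 24.7 CPM in WT saline libraries. No cerulein library came near a saline library. Its log2 fold change was -0.96 (SE 0.26, edgeR adjusted p 0.021, and 0.00057 without C3).

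Ndufs8, a neighbouring core iron-sulfur subunit, stood at 8.80, 9.29 and 8.35 CPM after cerulein, against 17.0, 11.9 and 14.7 CPM after saline in WT, a log2 fold change of -0.72 (SE 0.22, edgeR adjusted p 0.030). Ndufv3, an accessory subunit of the NADH-oxidising tip, stood between 8.99 and 12.8 CPM against 22.6, 16.9 and 19.1 CPM, a log2 fold change of -0.79 (SE 0.25, edgeR adjusted p 0.037). The groups were apart in both genes.

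The remaining named falls were accessory subunits, most of them of the membrane arm. Ndufb10, a cysteine-rich subunit facing the intermembrane space, stood at 16.1, 17.7 and 13.2 CPM in WT cerulein libraries, against 28.8, 22.6 and 25.3 CPM in WT saline libraries, and had the smallest adjusted p of the members (0.017 by edgeR, log2 fold change -0.71, SE 0.18). Ndufb7 and Ndufa8, which carry cysteine motifs of the same kind, fell by 0.76 (SE 0.21) and 0.67 (SE 0.22) on the log2 scale. Ndufb4 and Ndufb8, subunits of the distal membrane arm, fell by 0.75 (SE 0.22) and 0.67 (SE 0.20). Of the 50-base stretches of Ndufb4, 18.3% are shared with other annotated transcripts, most of all with Ndufb4c, so part of its count is uncertain.

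Ndufa13, Ndufa2 and Ndufa7 complete the 11 and are named because few members remain, after their values were seen. Their log2 fold changes were -0.63, -0.61 and -0.56. Exons of Tssk6 on the opposite strand cover 30.0% of Ndufa13, and the strand setting of the counting is not given in the sources used here.

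Ndufaf6, an assembly factor of complex I known for its part in the making of mt-Nd1, went the other way. It stood at 1.47, 1.74 and 1.10 CPM in WT cerulein libraries, against 0.647, 0.462 and 0.630 CPM in WT saline libraries, a log2 fold change of 1.30 (SE 0.34, edgeR adjusted p 0.018). The groups did not overlap at this low level. Ndufaf4, another assembly factor, singled out after its values were seen, had 0.45 (SE 0.18), with an edgeR adjusted p of 0.078 on TMM scaling and 0.0091 on plain library totals.

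**Figure D3:**
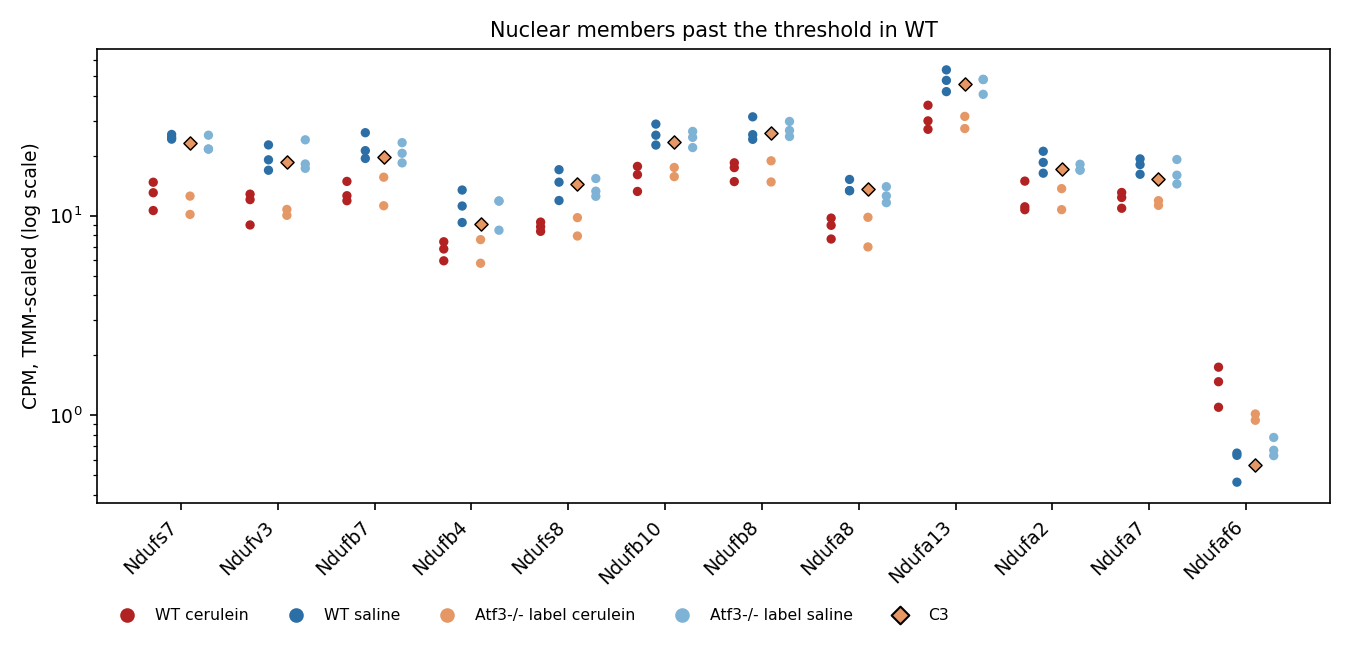
Levels (CPM on TMM-scaled library sizes, log scale) of the 12 nuclear members called in WT, 1 point per library, by group, with C3 as a diamond. The 5 cerulein libraries other than C3 lie below the 6 saline libraries for the 11 complex I subunits and above them for Ndufaf6.

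Complex II was lower in part. Sdhb, the leading complex II member, stood at 27.8, 30.9 and 22.3 CPM after cerulein, against 50.0, 38.5 and 40.5 CPM after saline in WT, with a log2 fold change of -0.67 (SE 0.27) and an edgeR adjusted p of 0.078, or 0.023 without C3. Sdhd, the small membrane anchor, named after its values were seen, had -0.72 (SE 0.26, edgeR adjusted p 0.057, and 0.0037 without C3). The flavoprotein Sdha and the anchor Sdhc had -0.27 and -0.36 and were not called.

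Complexes III, IV and V showed smaller differences. The medians over their tested nuclear members were -0.20, -0.26 and -0.38, and Uqcrh and Cox6a1 had -0.40 (SE 0.22) and -0.36 (SE 0.25), neither called. Atp5b stood at 276, 301 and 235 CPM in WT cerulein libraries, against 322, 249 and 256 CPM in WT saline libraries, and the groups overlapped. Its log2 fold change was -0.03 (SE 0.19) on TMM scaling and 0.26 on plain library totals, so it has no settled direction.

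The scaling changes the size of each fall. TMM factors were 1.01 to 1.27 in O1, O3, N3, C2 and L4, 0.788 to 1.08 in the saline libraries and 0.908 in C3. On plain library totals, an alternative chosen after seeing the data, the median of all genes in WT moved to 0.34, and the medians of the mitochondrial and nuclear classes to -0.25 and -0.12. Both classes lay below the median of all genes on both scales. Scaling moves all genes of a library alike, so this order was bound to stay and is no separate check. On plain totals no mitochondrial member was called, and of the nuclear members Ndufs7, Ndufb7 and Ndufb10 were lower and Ndufaf6 and Ndufaf4 higher. Leaving out any 1 of the 6 WT libraries left 0 to 4 nuclear calls, against 12 with all libraries. Calls over all genes fell as well, from 4399 to between 1841 (without O3) and 3718 (without N3), so the loss was not confined to the members. Without K5 or O3, 4 were called, all of them lower. Without R3 or O1, 0 were called. Without W1 and without N3, 1 and 2 were called, all of them higher, so no nuclear fall was called without W1, R3, O1 or N3.

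Summed over members, both classes stood lower after cerulein on TMM-scaled sizes. The mitochondrial class summed to 5477, 4738 and 5862 CPM in O1, O3 and N3, against 8547, 7566 and 7079 CPM in W1, K5 and R3 (5359 ± 571 and 7731 ± 748, SD, n = 3 each). No WT cerulein library reached a WT saline library on this scale. The nuclear class summed to 2263, 2464 and 1872 CPM against 3126, 2347 and 2660 CPM (2200 ± 301 and 2711 ± 392, SD, n = 3 each), and O3 lay above K5. On plain totals the nuclear sums were 2460 ± 75.2 and 2491 ± 228 CPM (SD, n = 3 each), a difference smaller than the spread. The mitochondrial sums on plain totals were 6102 ± 1315 and 7112 ± 164 CPM (SD, n = 3 each), and N3, at 7433 CPM, lay above the 3 WT saline libraries, at 6924 to 7224 CPM.

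**Figure D4:**
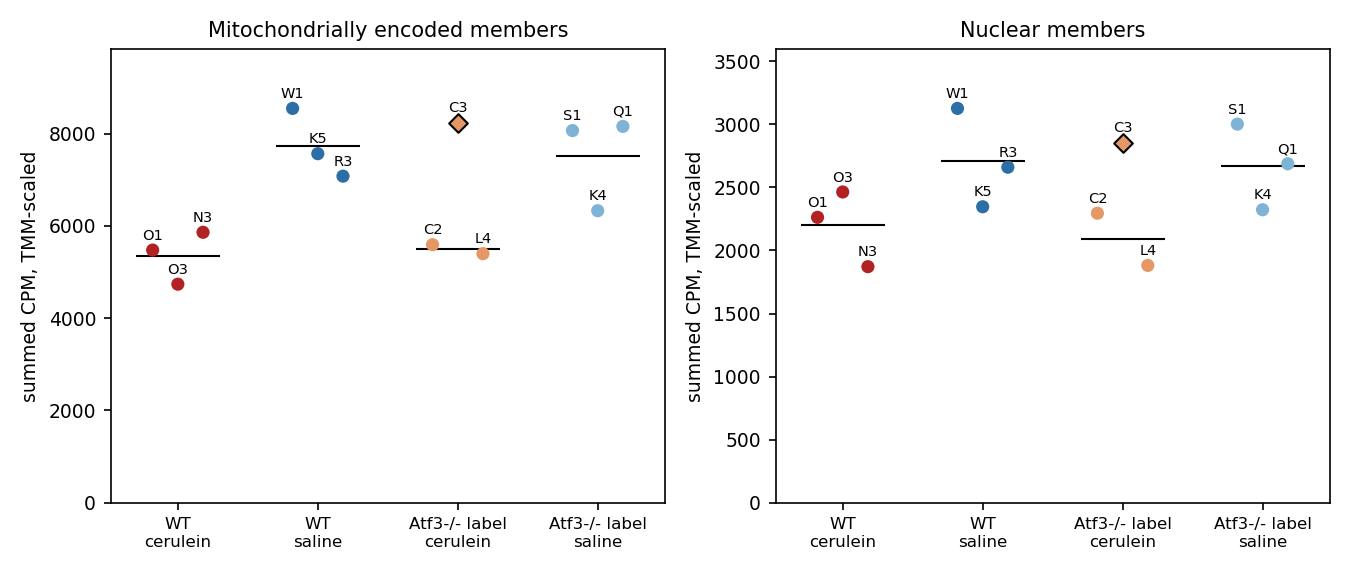
Summed CPM on TMM-scaled library sizes of the 13 mitochondrially encoded members (left) and the 93 nuclear members (right), 1 point per library, with lines at the group means without C3. The mitochondrial sums of C2 and L4 lie at 5594 and 5398 CPM, and C3 lies at 8234 CPM among the saline libraries.

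In labelled Atf3-/- mice the mitochondrial class summed to 5594 and 5398 CPM in C2 and L4 and 8234 CPM in C3, against 8067, 6330 and 8158 CPM in S1, K4 and Q1. The nuclear class summed to 2296, 1882 and 2856 CPM in C2, L4 and C3, against 3002, 2323 and 2687 CPM in the saline libraries. On this scale C2 and L4 lay below all 3 saline libraries in both classes and C3 did not. On plain totals the separation was lost, with the mitochondrial sum at 6447 CPM in L4 against 6427 CPM in Q1, and the nuclear sum at 2480 and 2247 CPM in C2 and L4 against 2117 CPM in Q1. The ratio of the mitochondrial to the nuclear sum, which needs no scaling, ran from 1.92 to 3.13 in O1, O3, N3, C2 and L4, against 2.66 to 3.22 in saline libraries, with overlap.

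The makeup of the nuclear sum also needs no scaling between libraries, and here the groups separated. Complex I members took 27.1%, 27.2% and 27.1% of it in O1, O3 and N3, against 30.7%, 31.0% and 31.2% in W1, K5 and R3. In labelled Atf3-/- mice they took 27.2% in both C2 and L4, against 29.5%, 30.3% and 30.1% in S1, K4 and Q1, and 30.0% in C3. The 5 cerulein libraries thus lay within 27.1% to 27.2% and the saline libraries from 29.5% to 31.2%. Complex V took 39.5%, 39.1% and 40.3% in WT cerulein libraries and 39.2% and 40.5% in C2 and L4, against 36.0% to 37.3% in the 6 saline libraries and 37.4% in C3. A larger share is not a higher level. The complex V sum in WT was 871 CPM after cerulein and 985 CPM after saline on TMM scaling, and 975 and 905 CPM on plain totals. Atp5b and Atp5a1 had the most counts in complex V, 76934 and 48167 over the 12 libraries. The share without these genes was not computed, so the separation may rest on them. Complex II took 3.91% to 4.51% in the 5 cerulein libraries and 4.50% in C3, against 4.57% to 5.24% in the saline libraries, so that here C3 lay with the cerulein libraries, and complexes III and IV overlapped.

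**Figure D5:**
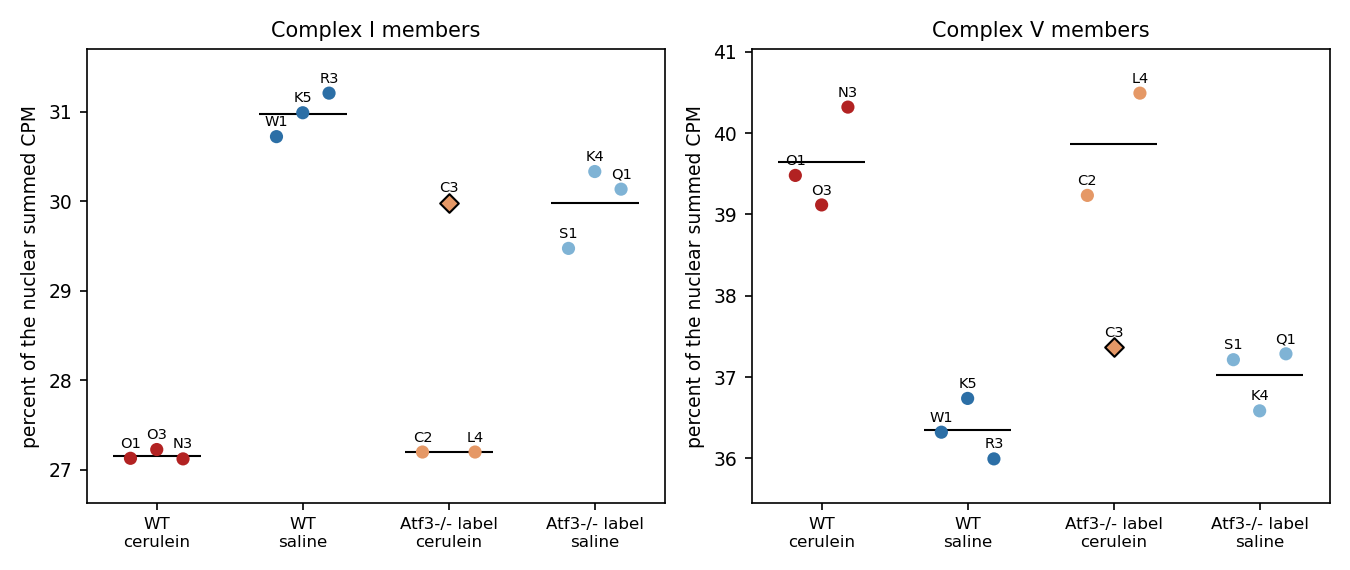
Share of the nuclear summed CPM (%) taken by complex I members (left) and complex V members (right) in each library, with lines at the group means without C3. The vertical axes do not start at 0. The 5 cerulein libraries other than C3 lie at 27.1% to 27.2% for complex I, below every saline library, and above every saline library for complex V.

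The second comparison asked how labelled Atf3-/- mice responded. With C3 included edgeR called no gene of the 14329 in either direction (0.0%), and limma-voom none, while DESeq2 called 1359 genes, none of them a member. At an unadjusted p under 0.05 edgeR had 8 of the 99 members (8.08%), all nuclear, beside 22.7% of all genes. Without C3, with 2 cerulein libraries against 3 saline libraries, 10.5% of genes were lower and 18.7% higher. Of the 87 nuclear members 21 were lower (24.1%) and none higher, 17 of them complex I subunits, 3 of complex II and 1 of complex V, and of the 12 mitochondrial members mt-Nd4 was lower. The medians without C3 were -0.46 in the mitochondrial class and -0.41 in the nuclear class, against 0.00 over all genes.

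Ndufs7 had the lowest p of the members without C3. It stood at 12.5 and 10.2 CPM in C2 and L4 and 23.0 CPM in C3, against 21.6, 21.6 and 25.3 CPM in S1, K4 and Q1. The log2 fold change was -1.01 (SE 0.17, edgeR adjusted p 0.0014) without C3 and -0.59 (SE 0.26, edgeR adjusted p 0.21) with it. Ndufv3 had -0.93 (SE 0.21) without C3 and -0.59 (SE 0.25) with it. In complex II, Sdhd stood at 11.9 and 11.0 CPM in C2 and L4 and 23.1 CPM in C3, against 23.4, 19.2 and 22.0 CPM in saline, a log2 fold change of -0.91 (SE 0.17, edgeR adjusted p 0.0028) without C3.

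mt-Co1 stood at 1852 and 2095 CPM in C2 and L4 and 2766 CPM in C3, against 2608, 2436 and 3077 CPM in the saline libraries of the line. Its log2 fold change without C3 was -0.45 (SE 0.19, edgeR adjusted p 0.10), and mt-Nd4 had -0.64 (SE 0.21, edgeR adjusted p 0.041). Ndufaf6 stood at 0.944 and 1.02 CPM in C2 and L4 and 0.563 CPM in C3, against 0.628 to 0.775 CPM in saline, and was not called (log2 fold change 0.51 without C3, SE 0.34). Cox6a2 had 2.12 (SE 0.77) without C3 at its few counts, with an edgeR adjusted p of 0.062 on TMM scaling and 0.045 on plain totals.

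Of the members lower in WT without C3 (35) and in labelled Atf3-/- without C3 (22), 21 were shared, 60.0% of the WT list and 95.5% of the other. Over all genes 1377 were lower in both, 56.2% and 88.8% of the 2 lists. Over both genotypes, 6 of the 12 tested mitochondrial members (50.0%) and 31 of the 87 nuclear members (35.6%) had all 5 cerulein libraries other than C3 below all 6 saline libraries, beside 15.4% of all genes. In complex I this held for 22 of 46 members, in complex II for 3 of 4, in complex III for none of 8, in complex IV for 1 of 12 and in complex V for 5 of 17. The 2 members above, Ndufaf6 and Ndufaf4, compare with 20.5% of all genes.

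The genotype comparisons called no gene. For labelled Atf3-/- against WT edgeR called 0.0% of genes in saline and 0.0% in cerulein, and 0.0% for the difference of the cerulein responses, with or without C3. At an unadjusted p under 0.05 edgeR had 1 of the 99 members (1.01%) in each of the 3, beside 0.419% of all genes in saline, 8.0% in cerulein and 4.15% for the difference. DESeq2 called none in saline, 11 in cerulein and 1 for the difference, none of them members, and limma-voom called none. The median log2 difference over the members in saline was -0.06, with mt-Co3, which was high in W1, at -1.47. For Ndufs7 the difference of the responses was 0.37 (SE 0.37) with C3 and -0.05 (SE 0.22) without it. A p that misses the threshold does not show that the genotypes responded alike.

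The other genes of the pathway were taken from lists of known factors, whose counts stand beside 12.8% of all genes lower and 17.9% higher in WT. Cycs, the cytochrome c that links complexes III and IV, rose in WT, to 26.6, 27.5 and 24.8 CPM after cerulein, against 14.9, 12.4 and 14.5 CPM after saline (log2 fold change 0.92, SE 0.19, edgeR adjusted p 0.0093). Of 10 complex I assembly genes outside the Nduf symbols 5 fell (50.0%) and none rose, led by Tmem126b (-1.42), Tmem186 (-1.22), Timmdc1 (-0.95) and Ecsit (-0.50), with a list median of -0.49. Tmem126b stood at 1.84 to 2.44 CPM in WT cerulein libraries, against 5.24 to 5.96 CPM in WT saline libraries.

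Assembly genes of the other complexes moved both ways. Of 7 for complex III 2 rose and 2 fell. Hccs, which attaches haem to cytochromes c, stood at 30.0, 31.9 and 18.1 CPM after cerulein, against 2.98, 2.67 and 2.60 CPM after saline in WT (log2 fold change 3.28), and Ttc19 rose by 0.93, while Uqcc3 and Lyrm7 had -1.42 and -1.39. Of 21 tested for complex IV 4 fell, Coa6 (-1.36), Cox15 (-1.18), Cox14 (-0.73) and Cox17 (-0.73), and none rose. Of 4 for complex II 1 fell (Sdhaf1, -1.60). Of 5 for complex V none passed, with Atpif1, the ATPase inhibitor, at -0.54 and Tmem242 at -0.37.

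Of 13 coenzyme Q genes 3 rose and 4 fell. Coq8b, an atypical kinase of the pathway, stood at 85.9, 97.0 and 63.1 CPM in WT cerulein libraries, against 6.14, 3.96 and 5.12 CPM in WT saline libraries (log2 fold change 4.02), Coq10b and Pdss1 rose by 1.88 and 1.20, and Coq9 had -1.28. Of 15 tested regulators of mitochondrial genes 5 rose and 2 fell. Pprc1, a coactivator of the PGC-1 family, stood at 189, 217 and 127 CPM after cerulein, against 36.8, 26.6 and 32.5 CPM after saline, and Gabpb1, the partner of GABPA, and Sirt1 rose by 1.21 and 0.99, while Ppara had -3.01. In labelled Atf3-/- mice without C3, Hccs, Coq8b and Pprc1 had adjusted p values of 4.42e-05, 3.96e-06 and 0.00017 (edgeR), and with C3 each had 0.086. Without C3, 4 of the 10 complex I assembly genes, 3 of the 21 for complex IV and 3 of the 13 coenzyme Q genes were lower in these mice, beside 10.5% of all genes, and 0, 0 and 2 were higher, beside 18.7% of all genes. The share for complex IV, 14.3% lower, was near that of all genes.

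Of 31 genes for the upkeep and expression of mitochondrial DNA 6 rose (19.4%) and 3 fell (9.68%) in WT, near the shares of all genes, with a median of 0.04. Rpusd4 and Trmt10c, which act on mitochondrial RNA, rose by 1.58 and 1.13, and Tfb1m and the helicase Twnk had -1.78 and -1.25. Of 13 citric acid cycle genes 1 rose and 4 fell (Dlst 0.58, Suclg2 -0.87, Ogdh -0.64, Idh3g -0.60). Of 10 genes around pyruvate dehydrogenase Pdp1, a phosphatase that activates it, rose by 3.96, and Pdp2 (-2.72), Pdk1 (-1.86) and Pdhb (-0.41) fell. Of 4 tested carriers and uncoupling genes none passed, with Slc25a3 and Slc25a5, the phosphate carrier and an ADP/ATP carrier, at 0.38 and 0.13.

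The ribosomal RNAs of the mitochondrial genome moved against its mRNAs. mt-Rnr2 stood at 611, 643 and 676 CPM in WT cerulein libraries, against 60.1, 83.3 and 88.8 CPM in WT saline libraries (log2 fold change 3.05, SE 0.68, edgeR adjusted p 0.011). mt-Rnr1 stood at 443, 429 and 439 CPM against 51.7, 85.3 and 95.3 CPM (log2 fold change 2.50, SE 0.61, edgeR adjusted p 0.014). In labelled Atf3-/- mice mt-Rnr2 stood at 195 and 534 CPM in C2 and L4 and 50.4 CPM in C3, against 36.8 to 99.1 CPM in saline. The libraries came from a stranded total RNA kit, the removal of ribosomal RNA is not described in the sources used here, and its part in this difference was not tested.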

How the data were processed

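Each of 12 libraries has 1 deposited file of unnormalized counts, with a whole number of reads for every Ensembl identifier. HTSeq, DESeq2 and mm10 appear in the submitters' processing notes with no version. The aligner, annotation release and strand setting: not given in the sources used here. The labels' protocols give a stranded total RNA kit. Replicates are separate libraries, 3 in each of 4 groups, and p-values measure the spread between them.

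Of 49585 genes 49326 matched GENCODE M21 by identifier. Genes passing filterByExpr (14329) were scaled by TMM and fitted in 1 robust edgeR quasi-likelihood model with a mean per group, two-sided, with Benjamini-Hochberg adjustment and a threshold of 0.05 (biological coefficient of variation 0.357, and 0.304 without C3). Each SE comes from the F statistic, as the absolute log2 fold change over its square root. CPM use TMM-scaled sizes. mt-Nd4l and 6 nuclear members did not pass the filter. No test was made on sums, shares or lists.

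The named genes are all mitochondrial members, the 8 largest nuclear rises and falls called per comparison, the most abundant nuclear member per complex and length, the tissue isoforms, and up to 4 called members of each other list, or the 2 most abundant where none passed. Of 254 list entries 251 were found. Members and lists were chosen with earlier results of these data known. On simulated counts the fit called 46.9% and 69.7% of genes changed by -2 and 2 on the log2 scale in WT. It called 6.45% and 15.2% of those changed by -1 and 1. The simulation changed 31 to 34 of 14080 genes at each size, whereas 12.8% of genes were called lower and 17.9% higher in WT. It also took each gene's spread from a trend over level. The shares it called need not hold for the data, because the adjustment depends on how many genes change. No interval from counts is given, and each SD is the spread between the libraries of a group. Tools were R 4.3.3, edgeR 4.0.16, limma 3.58.1, DESeq2 1.42.0, Python 3.11.15, pandas 2.3.3, NumPy 2.4.6 and matplotlib 3.10.9.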

Additional observations from a re-analysis of the deposited data

How the results depend on the processing

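Alternatives were DESeq2, limma-voom, DESeq2 size factors, TMM without mitochondrial and the 50 most abundant genes, no filter and each of 12 libraries left out. Plain totals, and DESeq2, limma-voom or plain totals without C3, were added after seeing the data. No paired analysis was possible because the labels tie no library of a group to a library of another, and the replicate numbers here follow only the order of deposit.

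In WT the single mitochondrial call became 3 with DESeq2 and 0 with limma-voom, with no filter and on plain totals with or without C3, and 8 and 7 with DESeq2 and limma-voom without C3. Leaving out libraries gave 0 to 8, the 8 without C3. The 12 nuclear calls became 4 with no filter, 5 on plain totals, and 31 and 27 with DESeq2 and limma-voom without C3, and leaving out libraries gave 0 to 28, the 28 without C3. Calls over all genes in WT moved too, from 4399 to between 1841 (without O3) and 5583 (without C3). Those of the other methods and scalings are not given here. A change in member calls therefore cannot be read as a result about the members alone. In labelled Atf3-/- mice the counts of 0 stayed at 0 in every fit that kept C3. Without C3 the mitochondrial count was 1 with edgeR, 4 with DESeq2 and 1 with limma-voom, and the nuclear count 21, 32 and 21, or 6 on plain totals. The 3 genotype counts stayed at 0 in all of these.

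On plain totals the log2 ratio of summed CPM, cerulein over saline, was -0.22 (mitochondrial) and -0.018 (nuclear) in WT, and 0.0044 (nuclear) in labelled Atf3-/- mice, where the TMM value was -0.19. Without 1 library the summed log2 ratios ran from -0.60 to -0.45 (mitochondrial) and -0.40 to -0.19 (nuclear) in WT, and from -0.45 to -0.12 and -0.35 to -0.05 in labelled Atf3-/- mice. The complex I share differed by -3.94 to -3.70 percentage points in WT and -2.78 to -1.39 in labelled Atf3-/- mice, and the complex V share by 2.95 to 3.55 and 1.27 to 2.84.

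Direction turned without a call in 4 genes. Without 1 WT library mt-Atp8 ran from -0.65 to 0.012, mt-Nd3 from -0.37 to 1.17 (-0.20 without K5, -0.32 without R3), Atp5b from -0.11 to 0.11 (0.07 without N3) and Cox6a2 from -0.98 to 0.60 (0.22 without O3, 0.07 without N3). Atp5b had 0.017 with no filter and 0.26 on plain totals, and Cox6a2 0.13 on plain totals, each with and without C3 for plain totals. Of 46 named genes called, 18 lost the call on plain totals, 15 with no filter and 17 to 26 without 1 WT library. The causes were not tested. Low counts limit the scarce mitochondrial members and the isoforms most.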
